A study of Mus musculus with 30 samples.

Results

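A set of 4 genes of the renin-angiotensin system were examined in mouse tail-tendon fibroblasts: Ace, Agt, Agtr1a and Agtr2. They were selected by name after their RNA values in these libraries were known, as 4 of the 35972 genes shared by both RNA tables, together with every listed chromatin site that the authors' annotation gives to one of them. Such sites numbered 5 of 16367, and all 5 belonged to Agtr1a. The RNA values of the 4 genes therefore describe the genes and carry no test.

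The cells were primary fibroblasts, wildtype per the labels, kept during treatment in medium with 0.1% serum. For RNA they received the solvent DMSO, blebbistatin at 10 µM, which inhibits non-muscle myosin II, or Y27632 at 30 µM, a kinase inhibitor that lowers actomyosin contractility. The same treatments were given to 9 ATAC libraries, which mark accessible DNA, and 12 more genomic DNA libraries combined doxycycline at 10 ng/mL with blebbistatin: neither agent, blebbistatin alone, doxycycline alone, or both. Every group held 3 libraries, 30 in all. The labels do not state what doxycycline induces, the assay of those 12 libraries, or whether libraries came from separate cultures or animals, so p-values measure the spread between these libraries, which may be technical.

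In the renin-angiotensin system, renin cuts the precursor angiotensinogen, the product of Agt, to angiotensin I. Angiotensin-converting enzyme, the product of Ace, is a membrane-bound peptidase that removes a dipeptide from the end of angiotensin I to give angiotensin II, and it also degrades bradykinin. Angiotensin II acts through a pair of G protein-coupled receptors: type 1, encoded in the mouse by Agtr1a and its close copy Agtr1b, and type 2, encoded by Agtr2. In fibroblasts, signalling through the type 1 receptor is known for promoting matrix production, and the type 2 receptor is often described as opposing the type 1 receptor.

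The promoters of Ace and Agtr2, the genes that were higher under both inhibitors, are shown first because they differ in base composition. Each sequence is the 250 bases before the annotated start in RefSeq (GRCm38.p6), 5′ to 3′ on the gene's strand. Capitals mark matches on either strand to GGGCGG, known as the GC box, or TATAAA, known as the TATA box, and none occurred in the Agtr2 window. The search took these exact letters only. The Agtr2 window holds tatataag near its 3′ end, so it cannot be called free of a sequence like the TATA box. The Ace window lies at chr11:105967698-105967947 (+) and the Agtr2 window at chrX:21484374-21484623 (+).
Ace: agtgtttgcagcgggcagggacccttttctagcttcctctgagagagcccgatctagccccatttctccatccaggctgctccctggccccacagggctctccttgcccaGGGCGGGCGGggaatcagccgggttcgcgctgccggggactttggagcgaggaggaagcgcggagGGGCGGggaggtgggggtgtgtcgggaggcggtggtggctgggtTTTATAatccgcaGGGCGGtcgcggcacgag
Agtr2: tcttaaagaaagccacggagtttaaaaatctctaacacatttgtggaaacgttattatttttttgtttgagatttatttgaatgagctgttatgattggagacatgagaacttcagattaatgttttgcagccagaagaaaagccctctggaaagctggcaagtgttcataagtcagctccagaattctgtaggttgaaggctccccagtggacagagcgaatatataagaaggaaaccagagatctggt
The Ace window had a GC content of 67.2% and the Agtr2 window 38.4%, against a median of 52.4% over 32851 windows of the same length. Ace held 4 GC boxes, the first bases of which lay 140, 136, 75 and 18 bases before the start, the first 2 sharing bases. It also held 1 TATA box on the reverse strand, 31 bases before the start. A GC box occurred in 32.7% of all windows and a TATA box in 12.4%. GGAATG, the core of the TEAD motif, TGANTCA, the AP-1 motif, and the CArG box, the serum response factor motif, were also searched on both strands and did not occur in either window. They occurred in 12.6%, 6.75% and 1.47% of all windows. The shorter GAATG, shared by the site matches given further below, does occur in the Agtr2 window. Its share over all windows was not counted. A second RefSeq start of Ace, with its window at chr11:105974939-105975188, had a GC content of 58% and held no match to any of the 5 motifs. The Agt window, not shown, had a GC content of 55.6% and 1 TATA box, 30 bases before the start, with no match to the other motifs. For Agtr1a no promoter window was available.

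Library depth was 23375386 to 37061737 reads in genes. Col1a1, Tnmd and Scx, taken from a list of 10 fibroblast and tendon markers, were present in all 9 libraries, with at least 224828, 725 and 49 reads per library. The changes over the whole list are given below. Values below are normalised counts, that is, reads divided by a size factor that the authors set separately in each of the 2 RNA tables, so that the shared DMSO libraries have slightly different values in each. Log2 changes are on log2(normalised count + 1). The blebbistatin and Y27632 comparisons use the same 3 DMSO libraries and are not independent.

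Ace stood higher under both inhibitors, and most under blebbistatin. In the blebbistatin table, Ace had normalised counts of 556, 538 and 500 with DMSO and of 3029, 2892 and 3035 with blebbistatin. The means were 531.4 ± 28.8 and 2985 ± 81.0 (SD, n = 3 each). The lowest blebbistatin library was far above the highest DMSO library, and the log2 change was 2.49 (SE 0.049), or 5.61-fold higher. By this change Ace ranked 32 from the highest of 14882 genes. In the Y27632 table, Ace had 578, 559 and 519 with DMSO and 1079, 1088 and 1204 with Y27632, with means of 552.1 ± 30.0 and 1124 ± 69.7 (SD, n = 3). These groups did not overlap either, and the log2 change was 1.02 (SE 0.059), or 2.03-fold, with rank 170 from the highest of 14833. In CPM, reads scaled to the depth of each library together over all 9, Ace had 20.0 ± 1.05 with DMSO, 40.8 ± 2.40 with Y27632 and 112.5 ± 2.41 with blebbistatin (SD, n = 3). The order DMSO, Y27632, blebbistatin held without overlap between neighbours, and blebbistatin was 2.79-fold above Y27632. Such separation was common: the libraries of the compared groups did not overlap for 60.2% of all genes under blebbistatin, 48.1% under Y27632 and 60.1% between the treatments.

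The Ace locus, chr11:105967948-105989964 on mm10, is crossed by the long non-coding gene Gm11651 and followed by the related gene Ace3. Gm11651 had 0 reads with DMSO, 5 with blebbistatin and 1 with Y27632, summed over 3 libraries each, and Ace3 had 0 in all 9.

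Agtr1a went the other way under blebbistatin and stood at about the DMSO level under Y27632. Its normalised counts were 4190, 4564 and 4304 with DMSO and 1553, 1648 and 1499 with blebbistatin. The means were 4353 ± 191 and 1567 ± 75.5 (SD, n = 3). Every blebbistatin library was below every DMSO library, with a log2 change of -1.47 (SE 0.045), or 2.78-fold lower, rank 176 from the lowest of 14882. In the Y27632 table, Agtr1a had 4356, 4738 and 4473 with DMSO and 4876, 4554 and 4852 with Y27632. The means of 4522 ± 196 and 4761 ± 179 (SD, n = 3) overlapped in their libraries, and the log2 change was 0.07 (SE 0.039). In CPM the levels were 59.1 ± 3.19 with blebbistatin, 163.9 ± 7.10 with DMSO and 172.7 ± 6.50 with Y27632. DMSO and Y27632, the upper neighbours in this order, overlapped in their libraries, and blebbistatin was 2.90-fold below Y27632, rank 104 from the lowest of 15262 genes. Agtr1b, whose sequence is close enough that reads can be shared, had 2 reads in each DMSO library and 0 in all 6 treated libraries.

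Agtr2 was higher under both inhibitors at a much lower read number. It had 78.4, 113.6 and 118.3 normalised counts with DMSO and 281.5, 235.1 and 236.1 with blebbistatin. The means were 103.5 ± 21.8 and 250.9 ± 26.5 (SD, n = 3), a log2 change of 1.29 (SE 0.150), or 2.44-fold. With Y27632, Agtr2 had 217.2, 176.2 and 155.1 against 81.5, 118.0 and 123.0 with DMSO in the same table. The means were 182.9 ± 31.6 and 107.5 ± 22.6 (SD, n = 3), a log2 change of 0.77 (SE 0.163), or 1.71-fold. The groups did not overlap in either table, although 1 DMSO library, replicate 1, was lower than the others. Agtr2 CPM was 3.90 ± 0.824 with DMSO, 6.64 ± 1.17 with Y27632 and 9.46 ± 0.978 with blebbistatin. Neighbours in this order did not overlap, and blebbistatin stood 1.42-fold above Y27632.

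Agt was near the limit of detection. It had 1 read in each DMSO library, 7, 2 and 9 with blebbistatin and 0, 0 and 3 with Y27632. It fell below the minimum mean of 10 normalised counts, so it was not tested and no fold is given. The authors' deposited table lists a log2 fold of 2.40 for Agt under blebbistatin and -0.19 under Y27632, values that rest on 18 reads or fewer per treated group. Of the 4 genes, 3 passed the minimum.

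**Figure D1:**
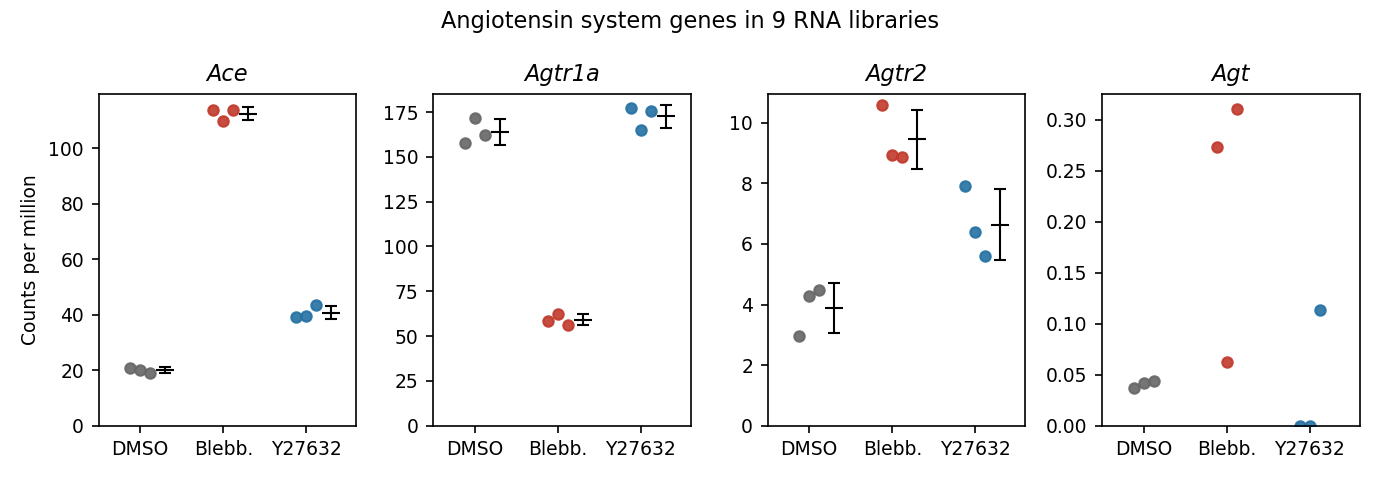
CPM (linear axes from 0, a separate scale for each gene) of Ace, Agtr1a, Agtr2 and Agt in the 9 RNA libraries. Points are libraries, and bars beside them are the mean ± SD of 3 libraries, left out for Agt. Ace is at 20.0 with DMSO and 112.5 with blebbistatin, Agtr1a is low only in the blebbistatin libraries, and Agt stays below 10 reads in every library.

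The part of residual leukocytes or vessel cells in the levels of the 4 genes was not tested. The summed CPM of 6 leukocyte markers was 47.5 to 54.5 with DMSO, 67.0 to 79.0 with blebbistatin and 65.0 to 76.0 with Y27632. All 4 leukocyte markers with enough counts (Ptprc, Cd68, Adgre1, Csf1r) passed the test upward under both inhibitors, with Cd68 at a log2 change of 0.58 and 0.55, while the T cell marker Cd3e had 0 reads. The summed CPM of 7 endothelial markers was 4.29 to 5.53, 6.53 to 7.48 and 6.20 to 7.05 in the same order. Of 3 endothelial markers tested, 1 passed under blebbistatin (Vwf, log2 change 0.68, limma adjusted p = 0.0222), with a change of 0.42 under Y27632 (limma adjusted p = 0.163), and Pecam1 had 4 to 19 reads per library. The sum of 6 mural cell markers was 85.9 to 96.6 CPM with DMSO, 101.4 to 114.9 with blebbistatin and 93.7 to 115.8 with Y27632. Of 4 mural markers tested, 2 rose under blebbistatin (Notch3, log2 change 0.59, and Cspg4, 0.23) and 1 fell (Rgs5, -0.52), while 2 rose under Y27632 (Mcam, 0.53, and Cspg4, 0.27). Of 10 fibroblast and tendon markers, all tested, 4 rose under blebbistatin (most Pdgfra, log2 change 0.58) and 4 fell (most Col1a1, -0.25, then Tnmd, -0.24). Under Y27632, 5 rose (most Fmod, 0.66) and 0 fell. Over all genes, 26.1% were called higher and 26.9% lower under blebbistatin, and 18.1% and 17.8% under Y27632. In such bulk RNA, a change in the number of cells that express a gene and a change in its RNA per cell cannot be told apart.

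The profiles most like those of the 3 measurable genes were found by Pearson correlation of log2(CPM + 1) over the 9 libraries among 13238 genes, as a description. The points share libraries and group differences, so many genes reach high values. Nearest to Ace were Nbl1, Sirpa and Fam189a2, each with r = 0.998. Nbl1 had 194.0 ± 5.53 CPM with DMSO, 332.2 ± 11.8 with Y27632 and 694.7 ± 14.0 with blebbistatin. Nearest to Agtr1a were Gnaq (r = 0.999), F2rl1 and Bicc1 (both 0.998). The change of Gnaq was small, with 109.7 ± 1.91 CPM with DMSO, 111.7 ± 0.956 with Y27632 and 85.8 ± 0.822 with blebbistatin. F2rl1 had 15.2 ± 0.998 CPM with DMSO, 17.3 ± 2.23 with Y27632 and 3.08 ± 0.416 with blebbistatin, and Bicc1 had 746.3 ± 18.4, 758.4 ± 6.08 and 356.9 ± 2.72. Nearest to Agtr2 were Armc9 (0.985), Atp6v1h (0.983) and Mgp (0.982), whose levels differed in how far they moved. Armc9 had 20.0 ± 0.861 CPM with DMSO, 21.7 ± 0.739 with Y27632 and 23.1 ± 0.667 with blebbistatin, and Atp6v1h had 80.3 ± 3.55, 88.8 ± 4.76 and 98.2 ± 2.77. Mgp had 11.8 ± 1.40, 17.3 ± 1.88 and 24.9 ± 3.97. A high correlation therefore did not mean a fold as large as that of the gene it was compared with.

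The rest of the angiotensin, kinin and aldosterone system was followed through 35 further genes, 34 of them in the tables. Under blebbistatin, 12 rose, 4 fell and 3 did not pass among the 19 with enough counts (limma, Benjamini-Hochberg adjusted p under 0.05 over all genes), and 15 were too low. Over all 14882 genes, 53.0% were called, 26.1% higher and 26.9% lower. Without DMSO replicate 1 the number called among the 19 was 10. Under Y27632, 7 rose, 5 fell and 7 did not pass, against 35.9% of all genes called, 18.1% higher and 17.8% lower. Between the treatments (edgeR on reads), 8 of 20 were higher and 5 lower with blebbistatin, against 52.4% of all genes, 26.5% higher and 25.8% lower. The median log2 change of the listed genes was 0.34, 0.11 and 0.20 in the 3 comparisons, and that of all genes tested 0.002, 0.004 and 0.005.

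Among the peptidases that trim or inactivate angiotensins, 6 of 10 tested rose and 2 fell under blebbistatin, and 5 rose and 2 fell under Y27632. The largest change under blebbistatin was that of Enpep, aminopeptidase A, which converts angiotensin II to angiotensin III. Enpep had 185.7, 182.0 and 168.9 normalised counts with DMSO and 618.0, 553.3 and 523.7 with blebbistatin, a log2 change of 1.65 (SE 0.082, limma adjusted p = 5.9e-09). With Y27632 its change was 0.36 (limma adjusted p = 0.00785), and it was higher with blebbistatin than with Y27632 by 1.30 (edgeR adjusted p = 7.83e-09). Its groups did not overlap in any of the 3 comparisons. Anpep, aminopeptidase N, which shortens angiotensin III, had 4095, 3998 and 3629 with DMSO and 9101, 8746 and 8414 with blebbistatin. Its log2 change was 1.16 (SE 0.046, limma adjusted p = 8.09e-10) with blebbistatin and 0.45 (limma adjusted p = 3.12e-06) with Y27632, and 0.72 between them (edgeR adjusted p = 4.09e-09). Thus Ace, Enpep and Anpep had the same order of groups, DMSO lowest and blebbistatin highest. This order was not particular to them, since Agtr2, Nln and Ctsa also had it, and the share of all genes with it was not counted.

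Nln, neurolysin, and Ctsa, a lysosomal carboxypeptidase, followed with smaller changes that were also larger under blebbistatin. Nln rose by 0.76 with blebbistatin and 0.29 with Y27632, and Ctsa by 0.62 and 0.31. Renin was nearly absent, with Ren1 at 1 read over all 9 libraries, and the chymase gene Mcpt4 and the cathepsin G gene Ctsg, which can also form angiotensin II, had 0. Another chymase gene, Cma1, had 1 to 12 reads per library.

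Beside the receptors, Mtus1 fell under both inhibitors. It encodes a protein that interacts with the type 2 receptor. Mtus1 had 2895, 3080 and 2757 normalised counts with DMSO and 1490, 1450 and 1352 with blebbistatin, a log2 change of -1.02 (SE 0.049, limma adjusted p = 4.69e-09). With Y27632 it had 2265, 2260 and 2263 against 3010, 3197 and 2865, a change of -0.42 (limma adjusted p = 5.37e-06). It was lower with blebbistatin than with Y27632 by -0.60 (edgeR adjusted p = 7.01e-08). Agtrap, the partner of the type 1 receptor, and Lnpep, which binds angiotensin IV, had log2 changes of less than 0.5 in all 3 comparisons. The receptor genes Mas1 and Mrgprd, which respond to shorter angiotensins, had 0 to 4 and 1 to 6 reads per library.

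In the kinin system, on which Ace also acts, Bdkrb2 had the largest change of the listed genes under Y27632. It encodes the bradykinin B2 receptor. Bdkrb2 had 53.7, 73.3 and 74.0 normalised counts with DMSO and 351.8, 239.1 and 334.4 with Y27632, a log2 change of 2.18 (SE 0.160, limma adjusted p = 3.92e-07), rank 14 from the highest of 14833 genes. With blebbistatin the change was 0.53 (limma adjusted p = 0.0186), and this call was lost with DESeq2 (adjusted p = 0.0521) and without DMSO replicate 1 or blebbistatin replicate 2 or 3. Blebbistatin was below Y27632 by -1.65 (edgeR adjusted p = 5.84e-07), the reverse of the order seen for Ace. Kng2, a kininogen gene, was lower with Y27632, with 48.9, 48.7 and 48.2 normalised counts against 78.4, 63.0 and 81.2 with DMSO, a log2 change of -0.59 (limma adjusted p = 0.00992). Its change of 0.42 with blebbistatin (limma adjusted p = 0.0451) was lost with DESeq2 (adjusted p = 0.124), with no filter on low values (limma adjusted p = 0.0703) and without DMSO replicate 1 or 2 or blebbistatin replicate 2 or 3, and the treatments differed by 1.05 (edgeR adjusted p = 6.72e-05). Reads of Kng2 and its close relative Kng1 may be shared, and Kng1 had 2 to 15 reads per library.

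In the aldosterone axis, the mineralocorticoid receptor gene Nr3c2 rose with blebbistatin by 0.74 (SE 0.128, limma adjusted p = 0.000365). With Y27632 its change was 0.42 (limma adjusted p = 0.058), and 0.58 (limma adjusted p = 0.0125) without Y27632 replicate 1. Hsd11b1, which regenerates active glucocorticoid, was 0.57 higher with blebbistatin than with Y27632 (edgeR adjusted p = 0.000183). Its changes against DMSO, 0.28 and -0.28 (limma adjusted p = 0.0216 and 0.0472), were lost when single libraries were left out: the first without DMSO replicate 1 or 2 or blebbistatin replicate 1, the second without DMSO replicate 2 or 3 or Y27632 replicate 2 or 3. The second was also lost with DESeq2 (adjusted p = 0.066). Cyp11b2, aldosterone synthase, had 0 reads in all 9 libraries.

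**Figure D2:**
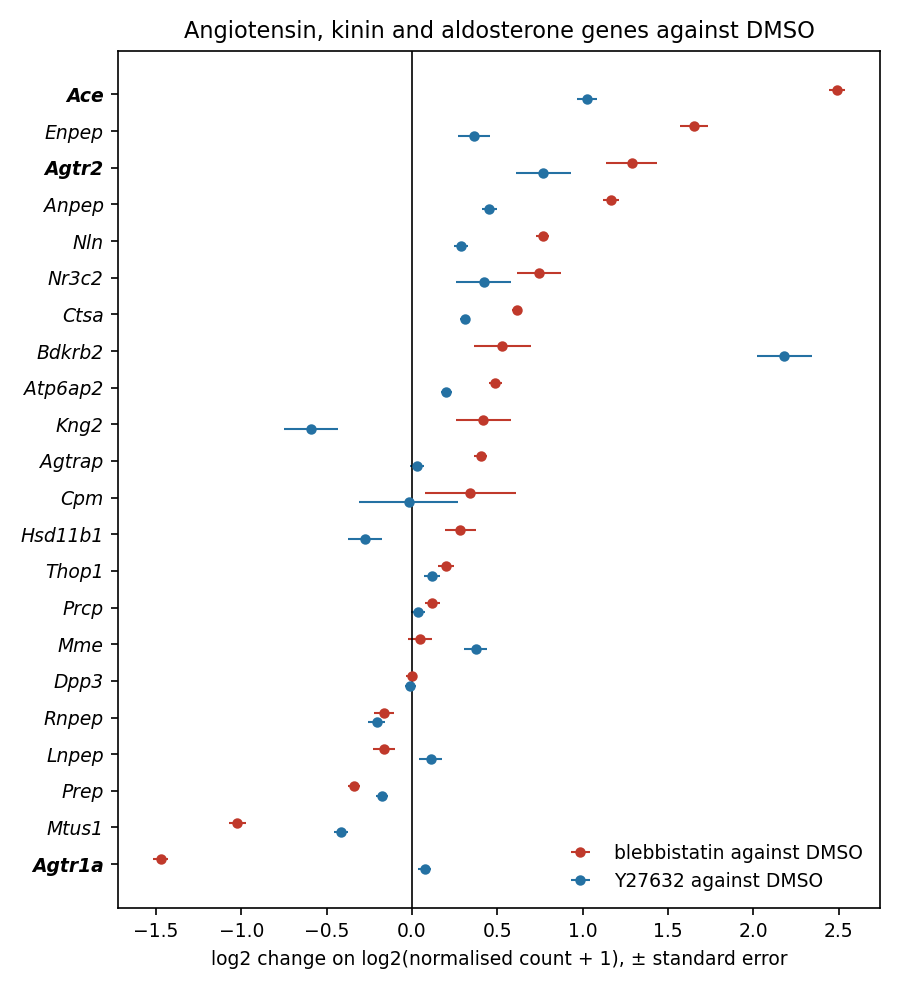
Log2 change of log2(normalised count + 1) against DMSO, with standard errors, for the 22 genes with enough counts, sorted by the blebbistatin value. Red points are blebbistatin and blue points Y27632, and bold names are Ace, Agtr2 and Agtr1a, shown without a test. Ace lies farthest right and Agtr1a farthest left under blebbistatin, while Bdkrb2 at 2.18 is the highest under Y27632.

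**Figure D3:**
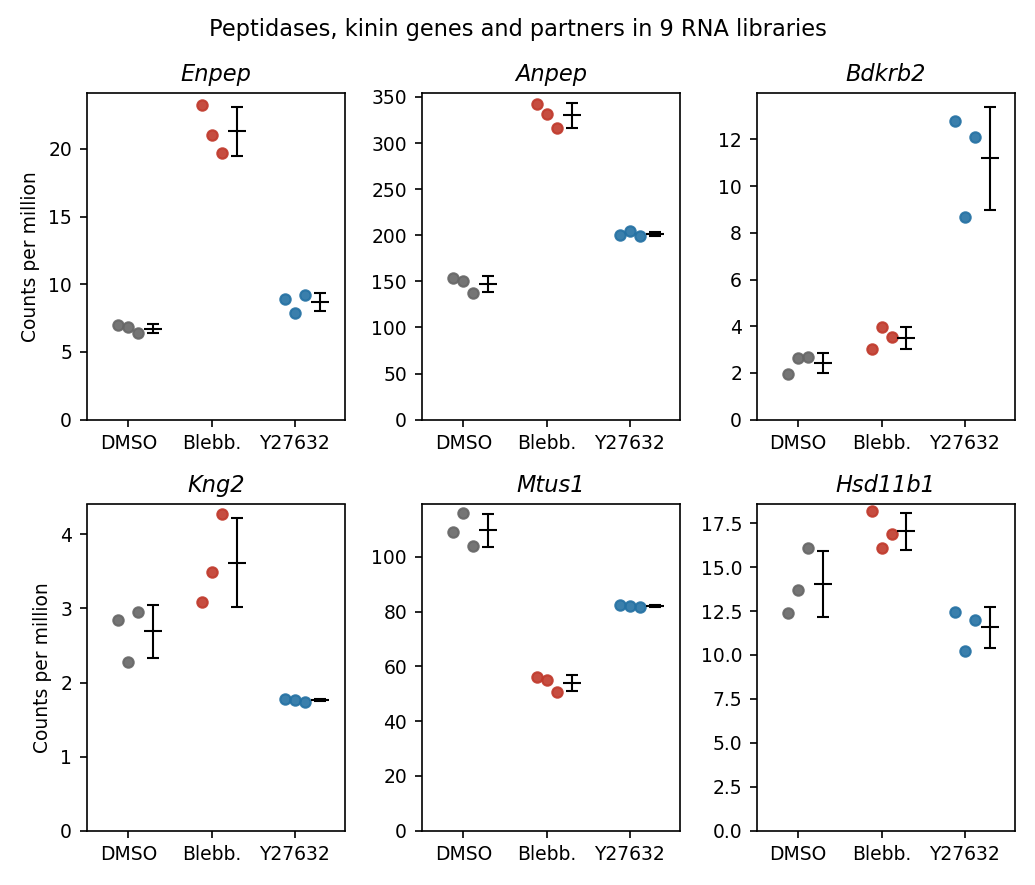
CPM (linear axes from 0) of Enpep, Anpep, Bdkrb2, Kng2, Mtus1 and Hsd11b1 in the 9 RNA libraries. Points are libraries and bars the mean ± SD of 3. Enpep and Anpep are highest with blebbistatin, Bdkrb2 with Y27632, and Mtus1 is lowest with blebbistatin.

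At the chromatin level, Agtr1a was the sole gene of the 4 with listed sites, and a site downstream of it was less accessible with blebbistatin. All site values are the authors' group means and tests, on a log2 scale, with no values per library, so no spread can be given here. In the ATAC list of blebbistatin against DMSO, the intergenic site at chr13:30410330-30410758 (mm10) had a mean of 7.18 with DMSO and 5.43 with blebbistatin, a log2 fold of -1.74 (authors' FDR 0.00435). It lies 74188 bases past the Agtr1a start and 27463 bases past the end of the gene, which spans chr13:30336356-30382867. Its direction was that of the list, in which 98.2% of 970 sites were lower, and its fold ranked 272 from the lowest. The Y27632 list, in which 85.0% of 207 sites were lower, held no site annotated to any of the 4 genes or to the other listed genes. The lists hold only sites that passed the authors' thresholds, so this does not show equal accessibility.

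The same site recurred in the doxycycline experiment. In the list of doxycycline against neither agent, chr13:30410311-30410712 overlapped it by 382 bases, which is 95.3% of the shorter site, and rose from 5.97 to 7.15, a log2 fold of 1.19 (authors' FDR 9.2e-07). In the list of both agents against doxycycline alone, the site fell from 7.15 to 5.84, a log2 fold of -1.31 (authors' FDR 7.13e-09). Thus it stood higher with doxycycline and, with blebbistatin added, near the level without either agent. These lists share the doxycycline group, and each went the way of nearly all its sites: 4.15% of 7613 were lower with doxycycline, and 99.8% of 6346 were lower with blebbistatin added. A further Agtr1a site, chr13:30285547-30285769, 50698 bases before the start, rose with doxycycline from 4.98 to 6.08 (log2 fold 1.10, authors' FDR 0.00035). Another, chr13:30389498-30389712, 53249 bases past the start, fell with blebbistatin on top of doxycycline from 6.28 to 5.01 (log2 fold -1.27, authors' FDR 7.91e-05). In the list of blebbistatin without doxycycline, in which 99.0% of 1231 sites were lower, there was none. The 5 sites occupy 3 separate places, and all are intergenic.

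**Figure D4:**
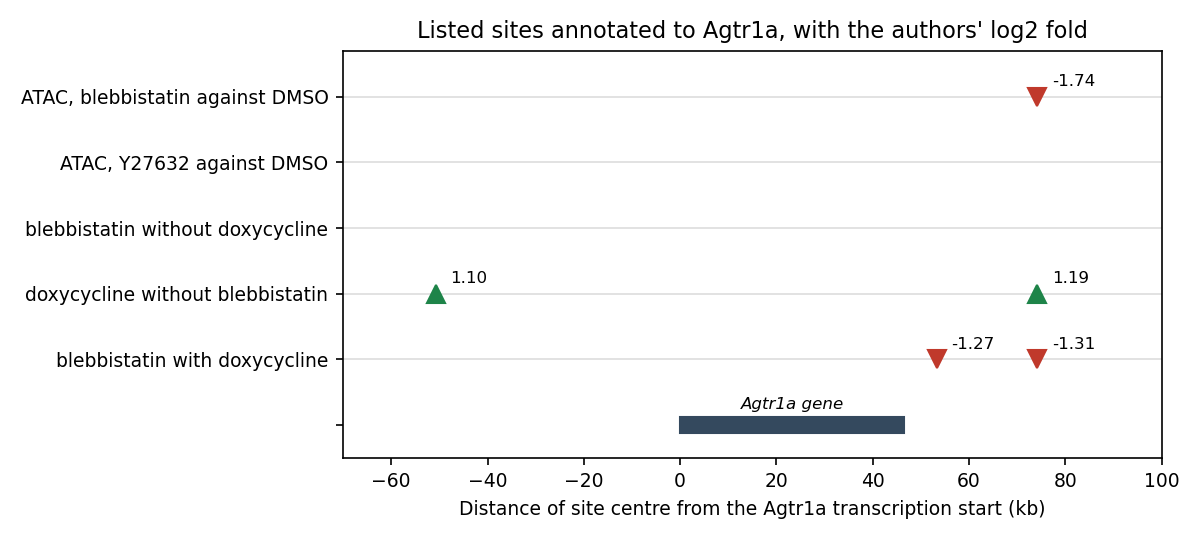
Position of each listed Agtr1a site by its distance from the Agtr1a start (kb), with 1 line for each of the 5 site lists and the gene drawn as a bar from 0. Upward green triangles are sites higher in the treated group, downward red triangles sites lower, and numbers are the authors' log2 folds. The site 74188 bases past the start appears in 3 lists, lower in both with blebbistatin and higher with doxycycline.

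The sequences at the downstream Agtr1a site are given because the ATAC blebbistatin table records, for every site, the matches of 1 motif whose best guess in the header is TEAD, the family of DNA-binding partners of Yap and Taz. The site held 2 matches on the reverse strand, at positions 103 and 351 as the table counts them. Those at the sites of the other listed genes follow for comparison, each read along the motif's own strand, with capitals marking GAATG, the letters that all of them have in common.
Agtr1a, position 103: agGAATGtgg
Agtr1a, position 351: aaGAATGttg
Hsd11b1, position 93: tgGAATGtca
Mtus1, position 50: aaGAATGcag
Mtus1, position 266: agGAATGtct
A match was present at 62.2% of the 970 sites and 2 or more matches at 20.6%, so a match by itself does not set the Agtr1a site apart. The 3 other sites of listed genes in that ATAC list were in an intron of Hsd11b1 (chr1:193243615-193243823, log2 fold -1.62), 203476 bases upstream of the Mme start (chr3:63091637-63091833, -1.63, with no match), and in an intron of Mtus1 (chr8:41125481-41125851, -1.43, authors' FDR 0.0424). Mme encodes neprilysin, another angiotensin-trimming peptidase. The Mtus1 site was also lower with blebbistatin without doxycycline (-1.22, authors' FDR 0.000262) and higher with doxycycline (1.22, authors' FDR 2.72e-07).

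Listed genes other than the 4 had 14 sites in the doxycycline list, all higher, and 11 in the list of blebbistatin on top of doxycycline, all lower, the direction of nearly all sites in those lists. With doxycycline these were 5 of Prep (1.06 to 1.30), 2 of Lnpep (2.44 and 1.50), 2 of Nr3c2 (1.41 and 1.38) and 1 each of Kng2 (1.78), Mtus1, Hsd11b2 (1.06), Agtrap (1.02, at its promoter) and Cma1 (1.07). With blebbistatin on top of doxycycline they were 3 each of Prep (-1.33 to -1.01) and Agtr1b (-1.21 to -1.01), 2 of Nr3c2 (-1.10 and -1.01) and 1 each of Mme (-1.04), Mtus1 (-1.03) and Lnpep (-1.37). These Mtus1 and Mme sites, chr8:41099386-41099538 and chr3:63325678-63326004, are both in introns and are not the sites of the ATAC list. The Mtus1 site of the ATAC list was not in this list. The Agtr1b sites lay 288703 to 657550 bases before that gene. The Prep sites in the list of blebbistatin on top of doxycycline lay 18393 to 235877 bases before the Prep start. In the doxycycline list, the intergenic Prep sites lay 189588 to 211395 bases before it. Within 100 kb of Ace, the 5 lists held 1 site, annotated to Cyb561 and present in the list of blebbistatin on top of doxycycline. Within 100 kb of Agtr2 there was 1 site each in that list and the doxycycline list, annotated to Gm5124. Near Agt, within the same distance, those lists held 1 site each, annotated to Cog2. The ATAC lists of blebbistatin and of Y27632 also held 1 each near Agt, annotated to 2310022B05Rik. No listed site was annotated to Ace or Agtr2. The lists hold only sites that passed the authors' thresholds, and in the ATAC blebbistatin list 17 of 970 sites were higher. The absence of a site therefore does not show unchanged accessibility, and a link between accessibility and the RNA of Ace and Agtr2 was not tested.

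The nearest protein-coding genes on either side of Agtr1a, Mboat1 and Uqcrfs1, were examined because the downstream site lies outside Agtr1a. That site is on the Uqcrfs1 side. Mboat1 changed by 0.03 with blebbistatin (SE 0.164, limma adjusted p = 0.902) and -0.31 with Y27632 (limma adjusted p = 0.177). Uqcrfs1 changed by -0.09 (SE 0.040, limma adjusted p = 0.0738) and 0.09 (limma adjusted p = 0.0856). Neither passed the test against DMSO, and Uqcrfs1 was lower with blebbistatin than with Y27632 by -0.17 (edgeR adjusted p = 0.002).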

How the data were processed

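RNA was measured in 9 libraries and chromatin sites in 21. The RNA tables hold a signal that the authors deposited as normalised counts per gene, and division by 1 step per library gave whole reads for 100% of values (tolerance 0.05), identical for DMSO in both tables. The deposited log2 fold changes of these tables were printed for Agt only. HISAT2, featureCounts, DESeq2, Bowtie2, SAMtools, Picard, MACS2, DiffBind, HOMER and the build mm10 are named, with no version, per the submitters' processing notes. The use of strand is not given in the sources used here. The site lists hold log2 group means and folds with p-values and FDR, deposited by the authors as the file headers name them, and the distance to the nearest start is another value of their annotation. Depth of the sites is unknown. The reference column of the doxycycline list is headed as blebbistatin without doxycycline but was read as neither agent: at 13 sites shared with another list it differed by -0.13 (SD 0.0044) from that group and by 1.12 (SD 0.184) from the group in the header.

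Genes with a mean of at least 10 normalised counts were tested with limma 3.58.1 (R 4.3.3, trend, no replicate block) on log2(normalised count + 1), which understates changes of low genes. Since the tables were normalised separately, blebbistatin was set against Y27632 on reads, with the quasi-likelihood test and TMM scaling of edgeR 4.0.16. Calls were made at a Benjamini-Hochberg adjusted p under 0.05. Tested on simulated data for blebbistatin (14906 genes), the test recovered 100% of log2 changes of 1 and 87% of 0.5. Between the treatments, edgeR recovered 99% and 82%. The 200 changed genes were drawn from genes with more reads than the minimum, so genes with few reads are not covered. They were also far fewer than the 53.0% of genes called with blebbistatin in the data. Every replicate pair differed by more than counting noise (chi-square per degree of freedom 2.63 to 8.06). Members and gene lists were chosen with earlier results of these data known. Listed genes were named where they were called with an absolute log2 change of at least 0.5 in any comparison, and the genes most like a member were the 3 with the highest correlation at a mean CPM of at least 1. Genes named outside this rule for a low or missing count, for a site, or as neighbours or markers were chosen after their values were seen. Of the gene names, 90.35% matched a reference symbol, 25 had become dates, and Ren2 was not analysed here. Some listed genes are not reported here. Sites were counted as shared at 1 bp or more. Alternatives were a pseudocount of 0.5, no filter, edgeR, DESeq2 1.42.0, a replicate block and leaving out each library.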

Additional observations from a re-analysis of the deposited data

How the results depend on the processing

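No value of Ace, Agtr1a or Agtr2 changed direction under any alternative. Where the compared groups did not overlap, leaving out 1 library could not reverse the direction, so this only describes these values. The libraries of Agtr1a overlapped with Y27632, and its log2 change there ranged from 0.048 to 0.108 when single libraries were left out. Leaving out single libraries, the log2 change of Ace ranged from 2.445 to 2.522 with blebbistatin and from 0.9734 to 1.058 with Y27632, and that of Agtr2 from 1.102 to 1.395 and from 0.5846 to 0.8812. The number of other angiotensin-system genes called with blebbistatin, 16 of 19, ranged from 10 to 16 when single libraries were left out. It was 10 without DMSO replicate 1 and 16 without DMSO replicate 3. Each of these fits held 1 library fewer, so the number depended on which library was left out. With a replicate block, 7604 genes were called with blebbistatin (7894 without it), 4633 with Y27632 (5328) and 7834 between the treatments (7990). Of the listed genes, 16, 12 and 15 were called with the block (16, 12 and 13 without it). Between the treatments, 21 listed genes were tested with the block and 20 without it. DESeq2 called 6612 genes with blebbistatin, 4109 with Y27632 and 6882 between the treatments, and 13, 11 and 13 of the listed genes. The numbers were not taken as pairs, because the labels do not say that they mark a shared animal or day. Same-numbered libraries did not deviate together (correlations of -0.061, 0.022 and 0.013 with blebbistatin, and -0.095, -0.001 and -0.019 with Y27632). Differently numbered libraries had correlations of -0.051 to 0.056. Of the alternatives for single genes, 387 kept their call or value, 18 lost a call (Kng2, Bdkrb2 and Hsd11b1) and 3 gained one (Nr3c2). Depth limits Agt and the genes with few reads, for which no change could be measured.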
